A study of Mus musculus with 98 samples.

Results

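The gp38+CD26+ and the gp38+CD26- fibroblasts of the thymus at 4 weeks of age were compared directly with each other, as 5 bulk RNA-seq libraries against 6. The members were chosen by their titles alone: all libraries of wild-type mice at 4 weeks titled gp38+CD26- (6) and those titled gp38+CD26+ (6) without the library numbered S124. This makes 11 of the 84 bulk libraries and of the 98 samples of the series. The study describes the nonepithelial thymic stroma (NETS) of the mouse from the embryo to 4 weeks by single-cell and bulk RNA-seq. Its wild-type mice were C57BL/6. For the bulk libraries live CD45- stromal cells were sorted on gp38, which is podoplanin and is encoded by *Pdpn*, and on CD26, which is dipeptidyl peptidase-4 and is encoded by *Dpp4*, with an ultra-low-input protocol related to Smart-seq. Both groups shared the genotype (wild type), the age and the tissue, and no treatment is given for either. Each group is a cytometric gate and not a single cell type. Whether each library came from a separate mouse or from pooled mice is not stated, so that the p-values below measure only the spread between these libraries, which may be technical. The libraries used held 12315710 to 14645628 gene counts in gp38+CD26+ and 10891173 to 15560221 in gp38+CD26-, whereas S124 held 25702. Libraries are numbered 1 to 6 within a gate, with S124 as number 2 of gp38+CD26+, and the 5 values of gp38+CD26+ are given in the order 1, 3, 4, 5 and 6.

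Fibroblasts of the thymus build the capsule and septa around the organ and also line vessels and lie among the epithelial cells of the medulla. Capsular fibroblasts resemble the adventitial fibroblasts of other organs, which sheathe large vessels and organ surfaces and are known for *Pi16* and *Cd34* and for elastic and collagen-rich matrix. Medullary fibroblasts lie close to blood vessels and to the sites where T cells complete their selection, and reticular fibroblasts of lymphoid organs of this kind are known for chemokines, cytokines and adhesion molecules that hold and feed lymphocytes.

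*Dpp4*, the gene of the sorted CD26 protein, followed the gates. It was at 642, 551, 1093, 1077 and 802 CPM in the 5 gp38+CD26+ libraries and at 1.23 to 7.99 CPM with a median of 3.72 in the 6 gp38+CD26- libraries, and no library lay in between. Here CPM are counts per 1000000 gene counts after TMM scaling. A log2 fold change is that of gp38+CD26+ over gp38+CD26- with its standard error (SE). The p given is that of edgeR's quasi-likelihood test adjusted over all 12587 genes tested by Benjamini and Hochberg, with a call at 0.05. For *Dpp4* the log2 fold change was 7.83 ± 0.48 and adjusted p = 9.81e-07. *Pdpn*, which both gates select, was at 578 ± 49.9 against 478 ± 47.4 CPM (mean ± SD over the 5 and the 6 libraries, as for all pairs of means below), and its difference did not pass the test (adjusted p = 0.0868). *Enpep*, which encodes Ly51, was at 0 to 27.4 CPM in gp38+CD26+ and at 29.4 to 62 CPM with a median of 39.9 in gp38+CD26-, and its difference did not pass the test either (log2 fold change -1.19 ± 0.74, adjusted p = 0.372). *Pecam1*, *Epcam* and *Ptprc*, which mark endothelial, epithelial and haematopoietic cells, reached at most 7.81, 2.32 and 4.38 CPM in any of the 11 libraries.

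Markers of mural and mesothelial cells were at unequal levels in the gates. In the study's scheme NETS cells are negative for Ter119, CD45 and EpCAM, and CD31+ cells and Ly51+gp38- cells have gates of their own. The 17 markers of mural cells, the pericytes and smooth muscle cells of vessels, summed to 111 to 279 CPM in gp38+CD26+ and to 2433 to 4416 CPM in gp38+CD26-. Of these markers 13 of the 16 tested were higher in gp38+CD26- and 3 not called. The 19 matched genes of the mesothelium, the epithelium-like sheet on the organ surface, summed to 2937, 9139, 12208, 6848 and 11689 CPM in the gp38+CD26+ libraries and to 529 to 939 CPM in gp38+CD26-. Of these genes 16 of the 17 tested were higher in gp38+CD26+ and 1 not called. Endothelial markers summed to 173.2 to 342 against 161.8 to 249 CPM and thymic epithelial markers to 336 to 418 against 400 to 614 CPM. Neural crest and glial markers summed to 18.2 to 100.5 against 97.9 to 236 CPM. In gp38+CD26- this came mostly from *Ngfr* (24.8 ± 28.3 against 157.97 ± 49.5 CPM, adjusted p = 0.0619). *Ngfr* had no count in the gp38+CD26+ library with the lowest sum. Haematopoietic markers ran from 890 to 2293 against 18.9 to 2483 CPM, mostly from the haemoglobin genes *Hba-a1* and *Hbb-bs*. Of the tested markers of endothelium (8), thymic epithelium (7), haematopoietic cells (6) and neural crest or glia (4), edgeR called 2, 2, 1 and 1 higher in gp38+CD26+ and 2, 1, 0 and 0 higher in gp38+CD26-, where 14.04% of all tested genes were called in either direction. The parts that mural and mesothelial cells had in the results below were not tested, and in bulk libraries fewer cells of a type and less RNA per cell cannot be told apart. Spearman correlations of log2 CPM lay between 0.862 and 0.923 within gp38+CD26+, between 0.911 and 0.939 within gp38+CD26-, and between 0.789 and 0.862 across the groups. The first gp38+CD26+ library, which also had the lowest sum of mesothelial genes, stood apart from the other 4 on the second axis of a multidimensional scaling plot (-3.88 against 0.23 to 2.08).

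Of the 12587 genes tested, 897 (7.13%) were higher in gp38+CD26+ and 870 (6.91%) were higher in gp38+CD26-, and the median log2 fold change over all tested genes was -0.01. In 804 genes (6.39%) every gp38+CD26+ library lay above every gp38+CD26- library, and in 890 (7.07%) every one lay below. All 897 and all 870 kept their direction of the group means within the libraries with the prefix TXCK in their titles (3 against 3) and within those with DFCK (2 against 3). The genes were called on these same libraries, so this agreement is largely fixed by their selection and is no replication. Tested alone, the TXCK libraries gave 652 and 614 calls and the DFCK libraries 235 and 208. With S124 added as a sixth gp38+CD26+ library, 475 genes were called higher in gp38+CD26+ and 622 in gp38+CD26-, of which 473 and 614 were among the genes above.

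**Figure D1:**
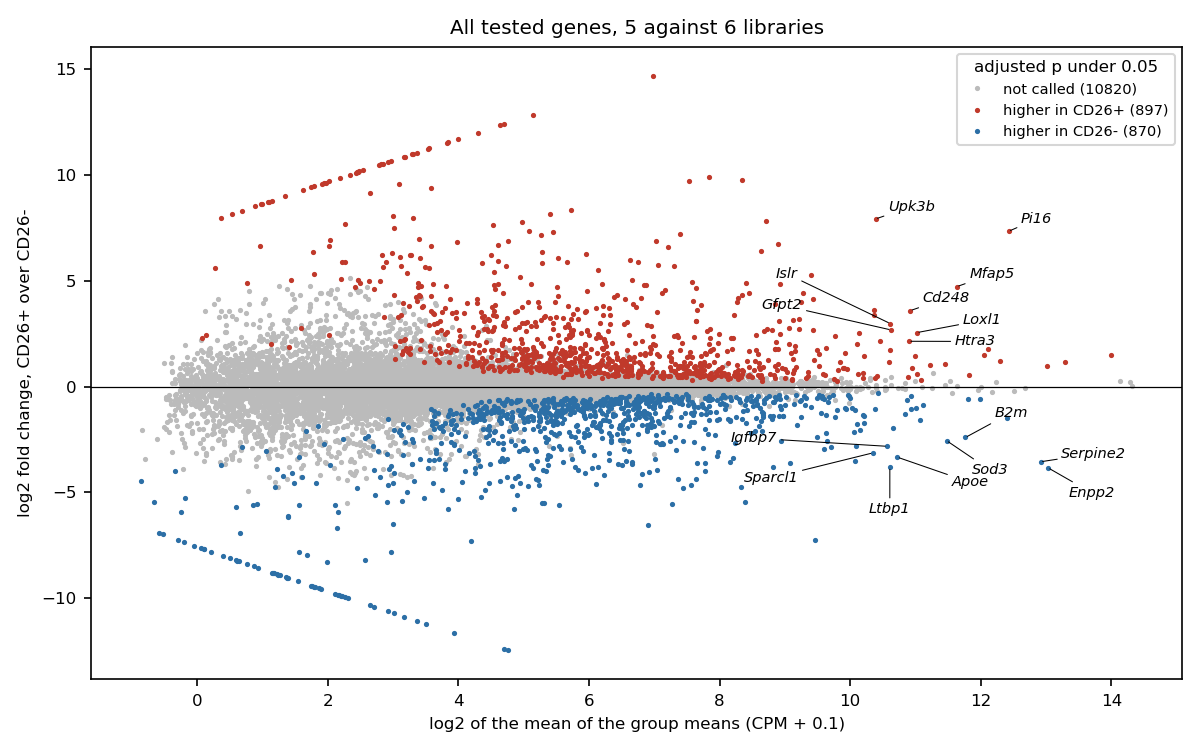
Log2 fold change of gp38+CD26+ over gp38+CD26- (y axis) against the log2 of the mean of the 2 group means (x axis, CPM + 0.1) for the 12587 tested genes, with 897 genes called higher in gp38+CD26+ in red and 870 called higher in gp38+CD26- in blue. The labelled genes have the highest mean CPM in the higher group among called genes with an absolute log2 fold change over 2. The points on the 2 outer straight lines are genes without a count in one of the groups, whose fitted fold changes are not bounds.

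Among abundant transcripts, the gp38+CD26+ gate was set apart by *Pi16*, *Mfap5*, *Cd248*, *Loxl1*, *Htra3*, *Islr*, *Gfpt2* and *Upk3b*, the 8 genes with the highest mean CPM in that group among those called with a log2 fold change over 2. Of these, *Upk3b* was at 0.916 CPM in capsular and 1797 CPM in mesothelial single cells of the same age. CPM are not divided by transcript length, so values are compared between groups and not between genes. *Pi16*, a peptidase inhibitor that marks adventitial fibroblasts in many organs, was at 6836, 8076, 12900.4, 14355 and 12521 CPM in gp38+CD26+ and at 17.3 to 212 CPM with a median of 27.3 in gp38+CD26-. The lowest gp38+CD26+ library thus lay far above the highest gp38+CD26- library, with a log2 fold change of 7.34 ± 0.76 and adjusted p = 3.66e-05. *Mfap5*, a glycoprotein of elastic microfibrils, was at 6138, 3739, 6959, 6614 and 7140.2 CPM against 115.04 to 459.6 CPM with a median of 215, again without overlap, and its log2 fold change was 4.72 ± 0.35 (adjusted p = 2.77e-06). *Cd248*, the stromal surface protein endosialin, was at 2743, 3243, 3782, 3737 and 4379 CPM against 214 to 441 CPM with a median of 261 (log2 fold change 3.59 ± 0.20, adjusted p = 4.58e-07). The 2 groups of *Cd248* were each narrow and did not overlap. *Loxl1*, an oxidase that crosslinks elastin, *Htra3*, a secreted serine protease, *Islr*, which encodes meflin, and *Gfpt2*, an enzyme of the hexosamine pathway, did not overlap either and had log2 fold changes of 2.55 ± 0.20, 2.14 ± 0.16, 2.98 ± 0.21 and 2.68 ± 0.19. In a fit together with the other nonepithelial populations at 4 weeks, the calls of *Htra3* and *Gfpt2* were lost.

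The adventitial fibroblast genes as a list moved in a single direction: of 18 members, all tested, 16 were called higher in gp38+CD26+ (7.13% over all genes), none in gp38+CD26- (6.91%), and 2 were not called. None was on the gp38+CD26- side at an unadjusted p under 0.05, by DESeq2 or by limma-voom either. Their median log2 fold change was 3.59, against -0.01 over all tested genes. This list was chosen with earlier results of these data known. It also shares members, such as *Pi16*, *Mfap5* and *Anxa3*, with the study's capsular genes below, so its count is not independent evidence either. *Sema3c*, a guidance molecule of the semaphorin family, was at 797, 531, 1027, 846 and 736 CPM in gp38+CD26+ and at 5.52 to 14.7 CPM with a median of 8.23 in gp38+CD26- (log2 fold change 6.43 ± 0.30, adjusted p = 2.28e-07). *Efhd1*, a calcium-binding mitochondrial protein, was at 333 ± 71.8 against 2.19 ± 1.2 CPM and the scavenging chemokine receptor *Ackr3* at 947 ± 256 against 8.98 ± 8.04 CPM, with log2 fold changes of 7.23 ± 0.52 and 6.73 ± 0.63. *Anxa3*, an annexin, was at 1319 ± 337 against 34 ± 17.6 CPM (log2 fold change 5.28 ± 0.43). These genes separated the gates completely, whereas other genes by which adventitial fibroblasts are often recognised differed less or were not called. *Cd34* was read at high levels in both gates, at 4303 ± 419 against 2901 ± 282 CPM (log2 fold change 0.57 ± 0.09, adjusted p = 0.00115), and its groups did not overlap, but its call was lost with S124 and in a fit with the other nonepithelial populations. *Dpt*, the collagen-binding protein dermatopontin, was at 1055 ± 152 against 803 ± 116 CPM (adjusted p = 0.0606). *Ly6a*, which encodes Sca-1, was at 356 ± 66.2 against 317 ± 66.3 CPM (adjusted p = 0.653). The groups of both overlapped. Of 30 genes by which the study described its capsular subtypes in single cells, 21 were higher in gp38+CD26+, 3 higher in gp38+CD26- (*Bgn*, *Cpxm1* and *Ptn*) and 6 not called. Thus 80% of that list was called, against 14.04% of all tested genes. That list comes from the study's own data, so its count is not independent evidence of a direction. Among its members, the calls of *Adamts2*, *Col1a1*, *Cpxm1*, *Igf1* and *Wt1* were lost both with S124 and in a fit with the other nonepithelial populations.

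**Figure D2:**
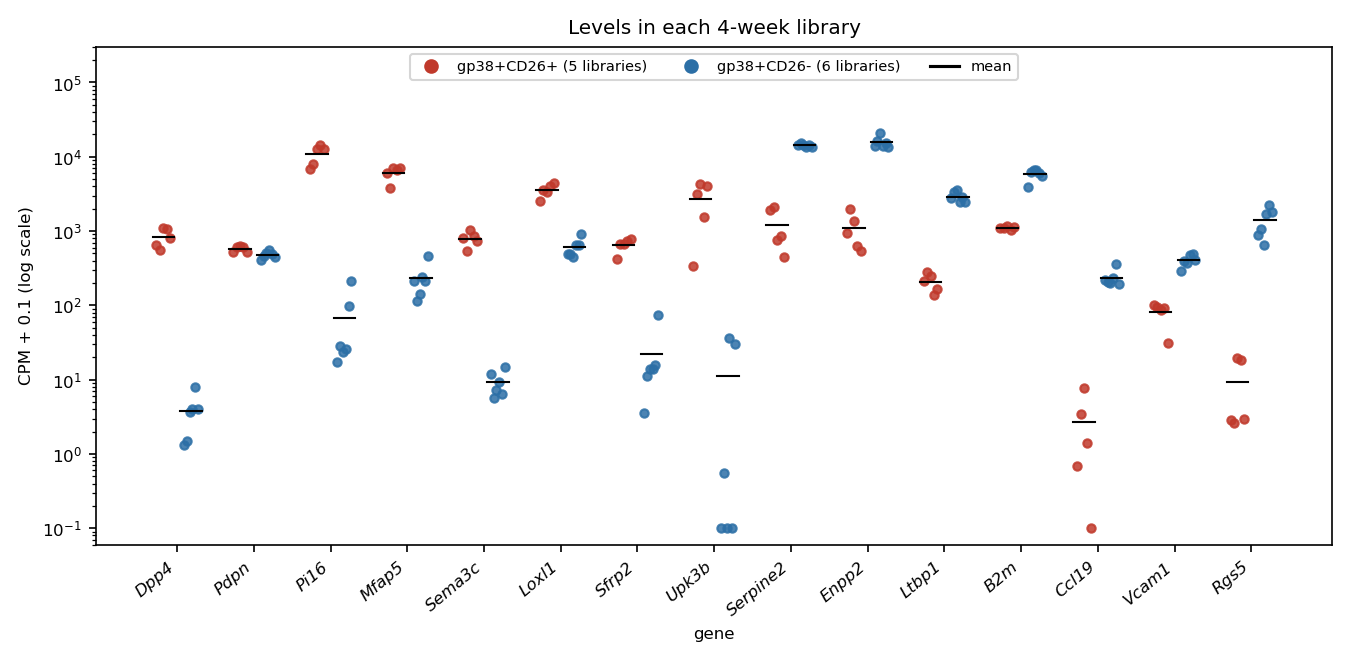
CPM + 0.1 on a log axis for 15 genes chosen after their values were seen, with each point a library (red, 5 gp38+CD26+ libraries; blue, 6 gp38+CD26- libraries) and each black line the mean. Except for *Pdpn* the groups of each gene are apart, and the first gp38+CD26+ library is the lowest of its group for *Upk3b*.

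Some genes were read in only one of the gates. The 12 genes with the largest log2 fold changes toward gp38+CD26+, among those with at least 10 CPM there and no overlap, had no count in any of the 6 gp38+CD26- libraries. Each fold is given as a lower bound against 3 counts over the group. *Mrgprg*, an orphan receptor of the Mas-related family, was at 245, 603, 92.6, 246 and 76 CPM, which is at least 6583-fold higher (adjusted p = 0.000154). *Wnt10b*, a ligand of canonical Wnt signalling, was at 14.9, 7.88, 25.8, 34.3 and 19.2 CPM, at least 532-fold higher. *Gpr1*, a receptor for the adipokine chemerin, was at least 1833-fold, *Pcdh20*, a protocadherin, at least 1354-fold and *Duox1*, a dual oxidase that makes hydrogen peroxide, at least 1019-fold higher. The remaining members were *Lmntd1*, *Lgi3*, *Faim2*, *Adamts16*, *Rab38*, *Mcf2l* and *Prss35*, with bounds between 508-fold and 1291-fold. In the other direction, 10 of the 12 genes had no count in any gp38+CD26+ library. *Pde1b*, a calmodulin-dependent phosphodiesterase, was at 43.6 to 77.9 CPM with a median of 50.2 in gp38+CD26-, at least 1184-fold higher. *Slc16a12*, a transporter of the monocarboxylate family, was at 32.4 to 67.4 CPM with a median of 53, at least 1139-fold higher. *Ednrb*, the endothelin receptor B, was at 12.3 to 33.3 CPM with a median of 19.2 (at least 449-fold) and *Trpc6*, a cation channel, at 6.74 to 16.8 CPM with a median of 11.8 (at least 271-fold). *Atcay*, *Gper1*, *Dmp1*, *Cpne4*, *Serpina10* and *Ephx3* had bounds between 282-fold and 663-fold. *Adra2a*, the alpha-2A adrenergic receptor, had 2 counts in gp38+CD26+ and was 394-fold higher in gp38+CD26- (95% counting interval 109 to 3255). *Higd1b*, a gene known from pericytes, was at 0.0587 ± 0.131 against 15.4 ± 3.07 CPM (log2 fold change -7.79 ± 0.97). In the single cells of the same age, 9 of the 12 genes toward gp38+CD26+ had their highest pooled level in capsular cells, whereas *Faim2* was highest in mesothelial cells (69.1 against 0.519 CPM of UMIs in capsular cells) and *Gpr1* and *Mcf2l* in endothelial cells (43.6 and 75.9 against 7.62 and 2.64 CPM). Of the 12 toward gp38+CD26-, 9 were highest in mural cells and 3 (*Atcay*, *Cpne4* and *Serpina10*) in medullary cells. *Ephx3*, *Pde1b* and *Dmp1* were at 364, 33.9 and 14.7 CPM in mural against 5.83, 8.78 and 4.29 CPM in medullary cells. The level of *Ednrb*, *Trpc6*, *Adra2a* and *Higd1b* was higher in mural than in medullary cells (124.3, 71, 170.2 and 504 against 9.23, 6.51, 93.3 and 35.1 CPM of UMIs, means of 2 libraries). *Slc16a12* was at 18.7 and 17.4 CPM in these cells and *Serpina10* at 0 and 4.24 CPM.

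Genes of the extracellular matrix were called in both directions. Of 22 genes of elastic fibres and microfibrils, 15 were higher in gp38+CD26+, 3 in gp38+CD26- and 4 not called. This is 81.8% called, against 14.04% of all tested genes, with a median log2 fold change of 1.53. *Eln*, which encodes elastin, was at 693, 701, 825, 694 and 1377 CPM in gp38+CD26+ and at 131.8 to 278 CPM with a median of 221 in gp38+CD26- (log2 fold change 1.99 ± 0.23, adjusted p = 7.16e-05). *Fbn1*, the fibrillin on which elastin is laid down, was at 1768 ± 270.1 against 441 ± 61.8 CPM (log2 fold change 2.004 ± 0.13, adjusted p = 1.15e-06), and neither gene overlapped between the gates. The fibulins *Fbln2* and *Fbln5*, which link elastin to its surroundings, had log2 fold changes of 2.67 ± 0.23 and 2.65 ± 0.25, and the crosslinking enzyme *Lox* one of 2.65 ± 0.35. The calls of *Fbln1* and *Efemp1* were lost with S124, and those of *Fbln1*, *Efemp1* and *Fbln2* in a fit together with the other nonepithelial populations at 4 weeks. The 3 members that went the other way were *Ltbp1*, which ties latent TGF-beta to microfibrils, *Ltbp2* and *Emilin1*. *Ltbp1* was at 211, 279, 245, 136.6 and 166 CPM in gp38+CD26+ and at 2449 to 3571 CPM with a median of 2812 in gp38+CD26- (log2 fold change -3.81 ± 0.20, adjusted p = 4.47e-07). *Ltbp2* had counts in 1 of the 5 gp38+CD26+ libraries only, at 8.36 CPM, and was at 20.9 to 86.3 CPM with a median of 58.5 in gp38+CD26-.

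Chains of collagens I, III and V were higher in gp38+CD26+ and chains of collagen VI in gp38+CD26-. Of 17 tested genes of a list of fibrillar, fibril-associated and other collagens, 9 were called higher in gp38+CD26+, 5 higher in gp38+CD26- and 3 not called. The 9 included *Col8a1* and *Col8a2*, and collagens VI and VIII are neither fibrillar nor fibril-associated. Thus 82.4% were called, against 14.04% of all tested genes. The 5 were *Col6a1*, *Col6a2*, *Col6a3*, *Col6a5* and *Col6a6*, the chains of the beaded microfilaments around cells. *Col1a1*, the main chain of collagen I, was at 20175, 21762, 26709, 24526 and 27320.5 CPM in gp38+CD26+ and at 7658 to 9731 CPM with a median of 8697 in gp38+CD26- (log2 fold change 1.47 ± 0.10, adjusted p = 2.47e-06). *Col3a1* was at 13863 ± 1157 against 6186 ± 1039.6 CPM and *Col14a1*, which coats collagen fibrils, at 1004 ± 86.5 against 114.7 ± 53.2 CPM (log2 fold changes 1.16 ± 0.12 and 3.13 ± 0.28). *Col6a3* went the other way, at 263 ± 62.1 against 695 ± 135.6 CPM (log2 fold change -1.40 ± 0.18), as did *Col6a5* at 12.8 ± 9.27 against 169 ± 38.1 CPM (log2 fold change -3.72 ± 0.46). With S124 among the gp38+CD26+ libraries, the calls of *Col1a1*, *Col1a2*, *Col3a1*, *Col6a1*, *Col6a2* and *Nid1* were lost. In a fit together with the other nonepithelial populations at 4 weeks the calls of these collagens were lost, and those of *Col6a3* and *Col6a6* too. Basement membrane genes were divided too: of 22 tested genes, 6 were higher in gp38+CD26+, 4 in gp38+CD26- and 12 not called, with a median of 0.09. Here 45.5% were called, against 14.04% of all tested genes. The calls of *Lamb2* and *Sparc* were lost with S124. *Nid1*, the linker nidogen-1, was at 2294 ± 335 against 512 ± 87.2 CPM (log2 fold change 2.16 ± 0.14). *Col15a1* was at 504 ± 218 against 1688 ± 393 CPM (log2 fold change -1.74 ± 0.26). *Col18a1* and *Col4a1* were at 28.6 ± 17.9 against 129.8 ± 31.1 CPM and 143.2 ± 95.8 against 431 ± 118.7 CPM (log2 fold changes -2.18 ± 0.39 and -1.59 ± 0.37). *Col4a2* was the other member on the gp38+CD26- side, and its call was lost without gp38+CD26+ library 1, 4, 5 or 6 or without gp38+CD26- library 2 or 3 (adjusted p up to 0.0832). These 4 collagens belong to basement membranes of vessels among other places, and *Col4a1* was highest in endothelial single cells (1642 CPM, against 1443 in medullary and 1384 in mural cells).

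The small leucine-rich proteoglycans, which sit on collagen fibrils, and the matrix proteases were likewise mixed. Of 11 tested proteoglycans, 5 were higher in gp38+CD26+, 2 in gp38+CD26- and 4 not called (63.6% called, against 14.04% of all tested genes). Of these calls, that of *Prelp* in gp38+CD26- was lost with S124 and those of *Omd* and *Epyc* in gp38+CD26+ in a fit with the other nonepithelial populations. *Ogn*, osteoglycin, was at 1268, 799.9, 1254, 1265 and 1148 CPM against 14.8 to 162 CPM with a median of 64.7 (log2 fold change 4.01 ± 0.52, adjusted p = 0.0002). *Aspn*, asporin, was at 1912 ± 655 against 334 ± 63.6 CPM (log2 fold change 2.52 ± 0.25). Biglycan (*Bgn*) was higher in gp38+CD26-, at 1072 ± 129.8 against 3242 ± 378 CPM (log2 fold change -1.60 ± 0.12, adjusted p = 2.64e-06). The 2 best known members, *Dcn* and *Lum*, were at 21469 ± 2318 against 18492 ± 2428 CPM and 3739 ± 393 against 4233 ± 371 CPM, and neither difference passed the test (adjusted p = 0.239 and 0.276). Of 28 tested proteases and inhibitors, 8 were higher in gp38+CD26+ and 4 in gp38+CD26- (42.9% called, against 14.04% of all tested genes). The 8 included the inhibitors *Timp2* and *Timp3* but also a matrix metalloproteinase, *Mmp23*. The 4 were all matrix metalloproteinases (*Mmp3*, *Mmp9*, *Mmp11* and *Mmp14*). In single cells the 4 were highest in medullary cells, whereas *Timp2* and *Mmp23* were highest in mesothelial cells and *Timp3* in mural cells. *Timp3* was at 793, 779, 991, 919 and 1013 CPM against 208 to 257 CPM with a median of 249.8 (log2 fold change 1.92 ± 0.11, adjusted p = 4.58e-07). *Mmp9*, the gelatinase B, was at 19.1, 53.9, 18.9, 0 and 0 CPM against 336 to 452 CPM with a median of 355 (log2 fold change -4.36 ± 1.07, adjusted p = 0.0149). Neither gene overlapped between the gates, and *Mmp9* was without a count in 2 of the 5 gp38+CD26+ libraries. The call of *Mmp14* was lost without gp38+CD26+ library 4 or 5 (adjusted p up to 0.0620) and that of *Mmp3* without gp38+CD26+ library 6 or gp38+CD26- library 5 (up to 0.0537), and both calls were lost with S124 and, with that of *Mmp11*, in a fit with the other nonepithelial populations. The calls of *Adamts2* and *Adamts5*, proteases higher in gp38+CD26+, were lost in both of these fits.

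Among signalling molecules, Wnt ligands and their secreted binders were mostly higher in gp38+CD26+. Of 26 tested Wnt genes, 14 were higher in gp38+CD26+ (7.13% over all genes), 4 in gp38+CD26- (6.91%) and 8 not called. Their median log2 fold change was 1.44. In single cells, 11 of the 14 were highest in capsular cells and 3 (*Rspo1*, *Wnt2* and *Wnt2b*) in mesothelial cells. The ligands *Wnt2*, *Wnt2b*, *Wnt5a*, *Wnt5b*, *Wnt10b*, *Wnt11* and *Wnt1* were all on the gp38+CD26+ side. *Wnt2* was at 174, 106, 107.7, 92.4 and 161.2 CPM against 0 to 18.6 CPM with a median of 11.3, without overlap (log2 fold change 3.71 ± 0.76, adjusted p = 0.00514). *Wnt5a*, a noncanonical ligand, was at 107.7 ± 19.9 against 16.8 ± 12.4 CPM (log2 fold change 2.68 ± 0.43). The secreted Frizzled-related proteins *Sfrp1*, *Sfrp2* and *Sfrp4*, which bind Wnt ligands outside the cell, were also higher there. *Sfrp2* was at 423, 665, 663, 742 and 771 CPM against 3.42 to 73.6 CPM with a median of 14 (log2 fold change 4.90 ± 0.64, adjusted p = 0.000206). *Sfrp4* was at 618 ± 193 against 30.8 ± 34.9 CPM (log2 fold change 4.33 ± 0.71). *Rspo1* and *Lgr5*, a ligand and a receptor of the R-spondin system, were higher there too, with log2 fold changes of 4.42 ± 0.996 and 4.02 ± 0.71. *Rspo1* ranged from 1.76 to 106 CPM in gp38+CD26+ with overlap and was at 406 CPM in mesothelial against 47 CPM in capsular single cells. The 4 members higher in gp38+CD26- were the receptors *Ror1* and *Ror2* and the inhibitors *Nkd2* and *Wif1*. *Nkd2*, which acts inside the cell, was at 36.7 ± 10.2 against 237 ± 63.2 CPM (log2 fold change -2.69 ± 0.24), and *Wif1* had no count in gp38+CD26+ and 0 to 4.91 CPM in gp38+CD26-. *Axin2*, a common target gene of canonical Wnt signalling, was at 18.4 ± 9.52 against 9.49 ± 1.98 CPM and was not called (adjusted p = 0.0976). In a fit together with the other nonepithelial populations at 4 weeks, the calls of *Wnt2*, *Wnt2b*, *Wnt5a*, *Wnt5b*, *Wnt11*, *Sfrp1*, *Rspo1*, *Lgr5*, *Ror1* and *Ror2* were lost. The calls of *Wnt2b* and *Wnt5b* were also lost in limma-voom, as were those of *Rspo1* and *Wif1*, and without any 1 of 5 and of 9 of the 11 libraries (adjusted p up to 0.0581 and 0.0994).

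Of 35 tested genes of BMP and TGF-beta signalling, 8 were higher in gp38+CD26+, 1 (*Id3*) was higher in gp38+CD26- and 26 were not called, so that 25.7% were called against 14.04% of all tested genes. With S124 the calls of *Fstl1* and *Tgfbr2* were lost. *Bmp7* was at 49.7, 57.6, 99.1, 98.8 and 117 CPM against 0 to 1.16 CPM with a median of 0 (log2 fold change 8.16 ± 0.84). *Bmp3* was at 35.3, 32.8, 52, 79.1 and 30 CPM against 0 to 0.809 CPM with a median of 0 (log2 fold change 7.65 ± 0.90). Both ligands were thus read in all gp38+CD26+ libraries and hardly in gp38+CD26-. In single cells *Bmp7* was highest in mesothelial cells and *Bmp3* in capsular cells. Follistatin (*Fst*), which binds activins, was at 196 ± 17.6 against 14.4 ± 9.11 CPM and *Fstl1* at 6247 ± 1132 against 2249.8 ± 295 CPM (log2 fold changes 3.77 ± 0.38 and 1.47 ± 0.14). *Id3*, a target gene of BMP signalling, was at 167.1 ± 40.2 against 480.1 ± 81.5 CPM (log2 fold change -1.52 ± 0.18). *Bmp4*, a BMP that the thymic mesenchyme is known to make, was at 163.1 ± 51.5 against 99.5 ± 34.9 CPM and was not called (adjusted p = 0.101).

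Growth factors and their binding proteins were called in both directions (12 and 5 of 30 tested, 13 not called, median 0.58). This is 56.7% called, against 14.04% of all tested genes. *Fgf18* was at 6.56 ± 3.59 against 0.159 ± 0.321 CPM (log2 fold change 5.33 ± 1.22) and *Vegfd*, a lymphatic growth factor, at 30.9 ± 8.98 against 2.81 ± 3.84 CPM (log2 fold change 3.46 ± 1.01). *Fgf9* was without a count in gp38+CD26- and at least 206-fold higher in gp38+CD26+, and in single cells it was highest in mesothelial cells. *Igf1*, a growth factor with broad effects, was at 2503, 926, 1223, 1231 and 1391 CPM against 290.4 to 980.2 CPM with a median of 437 (log2 fold change 1.59 ± 0.33, adjusted p = 0.00536), and its groups overlapped. The IGF-binding proteins were divided. *Igfbp5* was at 771, 1303, 1985, 1069.5 and 1379.8 CPM against 36.9 to 114.9 CPM with a median of 75.5 (log2 fold change 4.15 ± 0.35), and *Igfbp7* was at 376 ± 227 against 2656 ± 687 CPM (log2 fold change -2.82 ± 0.35). Both separated the gates without overlap. In single cells *Igfbp5* was highest in mesothelial cells (8242 CPM, against 493 in capsular and 157 in medullary cells), and *Igfbp7* was at 7596 CPM in medullary, 5797 in mural and 2517 in capsular cells. The PDGF receptors *Pdgfrb* and *Pdgfra*, which fibroblasts share, were on the gp38+CD26- side, at 114 ± 23.3 against 345 ± 52 CPM and 677 ± 142.9 against 960.0 ± 100.3 CPM (log2 fold changes -1.60 ± 0.16 and -0.50 ± 0.14). The call of *Pdgfra* was lost without gp38+CD26+ library 4, 5 or 6 or without gp38+CD26- library 2, 3 or 6 (adjusted p up to 0.0668), and that of *Vegfd* without any 1 of 7 libraries (adjusted p up to 0.0771). In a fit together with the other nonepithelial populations at 4 weeks, the calls of *Pdgfrb*, *Pdgfra*, *Vegfd* and *Igf1* were lost, and those of *Pdgfra* and *Igf1* were also lost with S124. In single cells *Pdgfrb* was highest in mural cells (684 CPM, against 264 in medullary and 126 in capsular cells), and *Pdgfra* was at 373 CPM in capsular and 336 CPM in medullary cells. *Angpt2*, a ligand of the receptor Tie2, was at 0.482 ± 1.08 against 27.8 ± 11.6 CPM (log2 fold change -5.81 ± 1.22). *Tek*, which encodes that receptor, was higher in gp38+CD26+, at 195 ± 67.7 against 3.06 ± 1.8 CPM (adjusted p = 3.03e-05). In single cells *Angpt2* was highest in mural cells (126 CPM, against 8.45 in medullary cells) and *Tek* in endothelial cells (189 CPM, against 22.2 in capsular and 3.21 in medullary cells).

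Of 13 tested retinoid genes, 4 were higher in gp38+CD26+, 2 higher in gp38+CD26- and 7 not called (46.2% called, against 14.04% of all tested genes). The 4 were *Dhrs3* and a trio of dehydrogenases that make retinoic acid. *Aldh1a3* was at 105, 51.7, 176, 153 and 114 CPM against 1.74 to 9.12 CPM with a median of 5.37 (log2 fold change 4.50 ± 0.50, adjusted p = 6.12e-05). *Aldh1a1* and *Aldh1a2*, which catalyse the same step, had log2 fold changes of 1.46 ± 0.27 and 2.75 ± 0.61, and the call of *Aldh1a1* was lost in a fit with the other nonepithelial populations. *Aldh1a2* is also a gene of the mesothelium, where its single-cell level was 325 CPM against 1.18 in capsular cells, and its call was lost in limma-voom. In single cells *Aldh1a1* too was highest in mesothelial cells. *Dhrs3*, which reduces retinal back to retinol and so works against that step, was at 754 ± 366 against 176 ± 164 CPM (log2 fold change 2.10 ± 0.51, adjusted p = 0.0144), with overlap. *Rdh10*, the dehydrogenase of the step before, was higher in gp38+CD26-, at 39.2 ± 11.7 against 151.4 ± 37.5 CPM (log2 fold change -1.95 ± 0.25).

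Mesothelial genes were among the largest differences toward gp38+CD26+, with a median log2 fold change of 4.87. *Upk3b*, a uroplakin of the mesothelial surface, was at 336, 3174, 4289.7, 1554 and 3994 CPM in gp38+CD26+ and at 0 to 36.3 CPM with a median of 0.225 in gp38+CD26- (log2 fold change 7.92 ± 1.58, adjusted p = 0.00418). *Msln*, mesothelin, was at 54.7, 555, 646, 273 and 747 CPM against 0 to 2.5 CPM with a median of 0 (log2 fold change 9.91 ± 1.06, adjusted p = 4.5e-05). The first gp38+CD26+ library was the lowest in both and the other 4 were higher by several fold, but it too lay above all gp38+CD26- libraries. *Krt19*, a keratin, was at 212 ± 136.5 against 3.7 ± 5.81 CPM (log2 fold change 5.87 ± 1.30). *Wt1*, a transcription factor of mesothelium and its derivatives, was at 112.2 ± 31.4 against 9.94 ± 13.2 CPM (log2 fold change 3.51 ± 1.05). The call of *Wt1* was lost in DESeq2, with S124, in a fit with the other nonepithelial populations and without any 1 of 7 of the 11 libraries (adjusted p up to 0.0829). In single cells *Upk3b* and *Msln* were at 0.916 and 0.442 CPM in capsular fibroblasts and at 1797 and 903 CPM in mesothelial cells, whereas *Wt1* was at 76.5 and 402 CPM. The calls of *Upk3b*, *Msln* and *Krt19* were lost in limma-voom, which called 7 of the 17 tested mesothelial genes, against 15 by DESeq2. Of the markers of other cell types, *Csf1r*, *Cldn3*, *Krt14* and *Mbp* were also called higher in gp38+CD26+, at mean levels of 13.51 to 53.2 CPM. All 4 were highest in the mesothelial pool of the single cells (23.5, 114.9, 84.5 and 117 CPM). The summed level of the neural crest and glial list, to which *Mbp* belongs, went the other way. *Krt14* overlapped between the gates, and its call was lost without gp38+CD26+ library 4, 5 or 6 or without gp38+CD26- library 2, 4 or 6 (adjusted p up to 0.0742). In a fit with the other nonepithelial populations the calls of *Csf1r* and *Krt14* were lost, and that of *Krt14* was also lost in limma-voom.

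The gp38+CD26- gate was set apart, among abundant transcripts, by *Enpp2*, *Serpine2*, *B2m*, *Sod3*, *Apoe*, *Ltbp1*, *Igfbp7* and *Sparcl1*. *Enpp2*, autotaxin, the secreted enzyme that makes lysophosphatidic acid, was at 927, 1992, 1377, 630.2 and 544 CPM in gp38+CD26+ and at 13580.0 to 20616 CPM with a median of 14708 in gp38+CD26- (log2 fold change -3.84 ± 0.33, adjusted p = 1.07e-05). *Serpine2*, the inhibitor protease nexin-1, was at 1909, 2096, 764, 862 and 441 CPM against 13570.5 to 15112 CPM with a median of 14329.8 (log2 fold change -3.55 ± 0.37, adjusted p = 3.72e-05). Levels of both genes varied by several fold among the gp38+CD26+ libraries and little among the gp38+CD26- libraries, and the gates were far apart. *Sod3*, the extracellular superoxide dismutase, was at 829 ± 159 against 4876 ± 765 CPM and *Sparcl1*, a matricellular protein, at 266 ± 219 against 2334 ± 568 CPM (log2 fold changes -2.56 ± 0.16 and -3.13 ± 0.43). *Apoe*, the lipid carrier apolipoprotein E, was at 305 ± 181 against 3074 ± 1068 CPM and *Apod* at 284 ± 154 against 1301 ± 478 CPM (log2 fold changes -3.34 ± 0.38 and -2.19 ± 0.38). They were the only 2 of 14 tested adipogenic genes that edgeR called (14.3%, against 14.04% of all tested genes). *Pparg*, the regulator of fat cell identity, was at 1.02 ± 1.61 against 3.15 ± 1.9 CPM (adjusted p = 0.602). Of 19 genes by which the study described its medullary subtypes, 12 were higher in gp38+CD26- (6.91% over all genes), none in gp38+CD26+ (7.13%) and 7 not called, with a median of -2.56. None was on the gp38+CD26+ side at an unadjusted p under 0.05, by DESeq2 or by limma-voom. Like the capsular list, this list is not independent of the study's data. *Csmd1*, a large membrane protein, was at 1.78 ± 1.82 against 42.2 ± 9.9 CPM (log2 fold change -4.55 ± 0.84). *Oaf* and *Il33* of the same list were at 797 ± 121.6 against 803 ± 130.5 CPM and 1636 ± 478 against 1330.2 ± 88.5 CPM and were not called (adjusted p = 0.978 and 0.3). *Des*, the intermediate filament desmin, was on this list and on the mural list, at 33.3 ± 26.4 against 405 ± 50.7 CPM (log2 fold change -3.60 ± 0.42). It was at 971 CPM in medullary and 1441 CPM in mural single cells.

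Most tested genes of antigen presentation on MHC class I were called higher in gp38+CD26-. Of 22 tested genes, 14 were higher there (6.91% over all genes), 1 (*Tapbp*) in gp38+CD26+ (7.13%) and 7 not called. Their median log2 fold change was -0.89. *B2m*, the light chain shared by all class I molecules, was at 1083, 1093, 1167, 1042 and 1149 CPM in gp38+CD26+ and at 3914 to 6688 CPM with a median of 6162 in gp38+CD26- (log2 fold change -2.40 ± 0.14, adjusted p = 4.58e-07). The class I heavy chains *H2-K1* and *H2-D1* were at 470.2 ± 131.9 against 1266 ± 163.1 CPM and 2859 ± 798 against 7994 ± 1234 CPM (log2 fold changes -1.43 ± 0.17 and -1.48 ± 0.19). The nonclassical *H2-Q7* was at 5.65, 18, 22.7, 2.66 and 15.9 CPM against 93.2 to 148.5 CPM with a median of 121 (log2 fold change -3.24 ± 0.47). None of these 4 genes overlapped between the gates, but near-identical H2 genes share reads, and the division of reads among them is uncertain. *Tap1*, a subunit of the peptide transporter, was at 65.3 ± 33.9 against 183 ± 35.3 CPM (log2 fold change -1.49 ± 0.30). *Psmb8*, a subunit of the immunoproteasome, was at 145 ± 28.7 against 286 ± 15.7 CPM (log2 fold change -0.98 ± 0.13). *Tapbp*, tapasin, was at 2184 ± 415 against 1607 ± 187.3 CPM with overlap (adjusted p = 0.0456, and 0.00382 to 0.126 when each of the 11 libraries was left out in turn, under 0.05 only without gp38+CD26+ library 1 or gp38+CD26- library 3). Of the 14 genes higher in gp38+CD26-, 11 had their highest single-cell level in endothelial cells and 3 (*B2m*, *Canx* and *H2-T23*) in medullary cells. *B2m* was at 2562 CPM in medullary, 759 in capsular, 824 in mural and 2452 in endothelial cells.

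Upstream sequences of class I genes were read because most of the tested class I genes were called in the same direction. The set shown was chosen after motifs in these sequences had been looked at. RefSeq gives a start site for each on the mouse assembly GRCm38.p6, and the 250 bases before it are printed 5′ to 3′ on the gene's strand, with the match to the NF-kB consensus of 10 bases in capitals. The windows are chr2:122147437-122147686 (plus strand) for *B2m*, chr17:34000334-34000583 (minus strand) for the first of 2 listed start sites of *H2-K1*, chr17:35262844-35263093 (plus) for *H2-D1* and chr17:35438905-35439154 (plus) for *H2-Q7*.
B2m: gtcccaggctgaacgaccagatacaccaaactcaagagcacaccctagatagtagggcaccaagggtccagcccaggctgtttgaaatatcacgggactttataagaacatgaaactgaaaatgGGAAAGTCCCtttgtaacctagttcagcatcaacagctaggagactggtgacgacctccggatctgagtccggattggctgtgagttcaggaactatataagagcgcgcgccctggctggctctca
H2-K1: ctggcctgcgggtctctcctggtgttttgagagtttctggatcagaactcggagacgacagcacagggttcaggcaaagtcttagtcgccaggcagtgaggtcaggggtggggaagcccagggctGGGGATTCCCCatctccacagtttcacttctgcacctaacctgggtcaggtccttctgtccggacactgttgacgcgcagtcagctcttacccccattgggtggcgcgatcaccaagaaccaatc
H2-D1: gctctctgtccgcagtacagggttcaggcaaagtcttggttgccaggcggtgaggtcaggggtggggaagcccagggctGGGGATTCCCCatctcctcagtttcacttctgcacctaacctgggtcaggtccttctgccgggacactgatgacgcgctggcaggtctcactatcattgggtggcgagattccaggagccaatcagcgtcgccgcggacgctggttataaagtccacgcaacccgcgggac
H2-Q7: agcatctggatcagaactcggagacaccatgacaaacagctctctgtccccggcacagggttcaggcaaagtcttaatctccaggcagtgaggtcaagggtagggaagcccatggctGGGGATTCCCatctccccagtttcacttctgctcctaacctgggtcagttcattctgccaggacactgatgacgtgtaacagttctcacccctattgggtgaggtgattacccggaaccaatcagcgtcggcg
The match begins 126, 171 and 133 bases before the start site in *B2m*, *H2-D1* and *H2-Q7*, and *H2-K1* and *H2-D1* hold 2 overlapping matches each. Searched on both strands, the consensus was in 7.25% of 32851 such windows of all mouse genes (8.23% of 27025 genes). It was in 6 of 13 class I genes higher in gp38+CD26- that had a window, 0 of 1 higher in gp38+CD26+ and 2 of 5 not called. All of the 6 but *B2m* are H2 genes, whose upstream sequences are alike and are not independent. Only genes with a window were counted in the other lists too. In the lymphoid stroma list below the consensus was in 2 of 6 higher in gp38+CD26-, 1 of 1 higher in gp38+CD26+ and 3 of 4 not called. Among the chemokine genes it was in 0 of 6, 1 of 3 and 3 of 7. A strict form of the interferon-stimulated response element, a pair of GAAA runs with 2 bases between them, was in 2.98% of all windows. It was in 2 of the 13 class I genes, *B2m* and *H2-T23*. Only this exact form was searched for, so a window without it may hold another form of the element. A match is a run of letters and not a site shown to be bound.

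Class II genes and most interferon-stimulated genes did not pass the test. None of 9 tested genes of MHC class II presentation was called by edgeR or reached an unadjusted p under 0.05, none was called by DESeq2 and 1 by limma-voom. Of 33 tested interferon-stimulated genes, 5 were higher in gp38+CD26-, 1 in gp38+CD26+ and 27 not called, with a median of -0.26, and the share called was 18.2% against 14.04% of all tested genes. DESeq2 and limma-voom called 10 and 9 of them higher in gp38+CD26- and 2 each in gp38+CD26+. Over all genes DESeq2 called 1138 higher in gp38+CD26- and 1207 in gp38+CD26+, and limma-voom 1147 and 1063. These tools thus called more genes than edgeR, and the 14.04% is not their background. The interferon-stimulated genes that edgeR called included the interferon-inducible GTPases *Iigp1* and *Ifi47*, and *Xaf1* and *Bst2*. In single cells the 5 higher in gp38+CD26- were all highest in endothelial cells, and the 1 higher in gp38+CD26+ (*Gbp2*) in mesothelial cells. The calls of *Xaf1* and *Bst2* were lost with S124, and that of *Bst2* without any 1 of 6 of the 11 libraries (adjusted p up to 0.0842). *Iigp1* was at 199 ± 114.9 against 552 ± 80 CPM and *Ifi47* at 31.5 ± 15.8 against 102 ± 25.1 CPM (log2 fold changes -1.47 ± 0.30 and -1.69 ± 0.30). *Isg15* and *Irf7*, by contrast, were at 14.3 ± 7.1 against 21.2 ± 4.08 CPM and 76.5 ± 33.7 against 67.7 ± 9.69 CPM (adjusted p = 0.336 and 0.787).

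Genes of chemokines and their scavenging receptors were called in both directions. Of 21 tested genes, 8 chemokines were higher in gp38+CD26-, and the 3 called higher in gp38+CD26+ were the atypical receptors *Ackr2*, *Ackr3* and *Ackr4*. The other 10 were not called, and the median was -1.19. Thus 52.4% were called, against 14.04% of all tested genes. DESeq2 and limma-voom called 4 each higher in gp38+CD26+ and 11 and 8 higher in gp38+CD26-, beside their calls over all genes given above. The calls of *Ackr2*, *Ackr4*, *Ccl11* and *Cxcl14* were lost in a fit together with the other nonepithelial populations, that of *Cxcl12* with S124, and that of *Cxcl14* without any 1 of 8 of the 11 libraries (adjusted p up to 0.0872). *Ccl19*, which draws CCR7-bearing T cells and dendritic cells, was at 0.587, 3.36, 7.56, 1.3 and 0 CPM in gp38+CD26+ and at 192.4 to 364 CPM with a median of 215 in gp38+CD26- (log2 fold change -6.52 ± 0.77, adjusted p = 9.14e-05). *Cx3cl1*, fractalkine, was at 36.5, 52.8, 29.2, 24 and 9.04 CPM against 278 to 420.3 CPM with a median of 388 (log2 fold change -3.61 ± 0.36). *Cxcl9*, a ligand of CXCR3, was at 4.92 ± 2.34 against 63.7 ± 18.5 CPM (log2 fold change -3.69 ± 0.39). These 3 chemokines did not overlap between the gates, whereas *Cxcl12* and *Cxcl14*, at 119.2 ± 48.7 against 272 ± 43.3 CPM and 54.5 ± 55.9 against 201 ± 57.5 CPM, were called with overlap. In single cells *Ccl19* was at 111.7 CPM in medullary and 137.5 CPM in mural cells, and *Cxcl9* at 81.3, 58.1 and 55.9 CPM in medullary, mural and endothelial cells. *Ccl21a* and *Cxcl13* were at 2.9 ± 4.97 against 36.4 ± 38.6 CPM and 61.6 ± 45.7 against 217 ± 180.2 CPM and were not called (adjusted p = 0.0567 and 0.0734), and reads of *Ccl21a* are shared with near-identical copies.

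The list of lymphoid stroma cytokines and adhesion molecules was also weighted to gp38+CD26-. Of 20 tested genes, 11 were higher there (6.91% over all genes), 2 higher in gp38+CD26+ (7.13%) and 7 not called (median -1.41). *Vcam1* and *Icam1*, to which lymphocytes adhere, were at 82 ± 28.7 against 406 ± 73.7 CPM and 50.3 ± 27.9 against 174 ± 33.9 CPM (log2 fold changes -2.31 ± 0.27 and -1.79 ± 0.31, adjusted p = 8.86e-05 and 0.0017). *Il34*, a ligand of the macrophage growth factor receptor, was at 119.8, 284, 164, 106.97 and 94.5 CPM against 575 to 721 CPM with a median of 639.7 (log2 fold change -2.09 ± 0.26). *Tslp* was at 1.72 ± 1.65 against 25.7 ± 12.6 CPM and *Tnfsf13b*, which encodes the B-cell factor BAFF, at 30.1 ± 9.94 against 74 ± 19.3 CPM (log2 fold changes -3.89 ± 0.92 and -1.29 ± 0.25). The lymphotoxin-beta receptor and the 2 subunits of the noncanonical NF-kB dimer it activates were all higher in gp38+CD26-. *Ltbr* was at 46.7 ± 10.1 against 89 ± 18 CPM (log2 fold change -0.93 ± 0.19). *Nfkb2* was at 47.3 ± 14.3 against 141 ± 14.9 CPM and *Relb* at 19.6 ± 7.57 against 56.6 ± 6.96 CPM (log2 fold changes -1.57 ± 0.20 and -1.53 ± 0.28). On the gp38+CD26+ side were *Tnfrsf11b*, which encodes osteoprotegerin, the decoy receptor of RANKL, at 191.99 ± 38.5 against 12.7 ± 3.18 CPM (log2 fold change 3.91 ± 0.21), and *Csf1* at 458 ± 123.97 against 243 ± 18.3 CPM. In single cells *Tnfrsf11b* was highest in mesothelial cells and *Csf1* in capsular cells. The call of *Csf1* was lost with S124 and within the DFCK and the TXCK libraries. *Il7*, which developing T cells need, was at 4.73 ± 2.9 against 14.3 ± 3.5 CPM and was not called (adjusted p = 0.234), although its groups did not overlap.

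Complement genes were called in both directions. *C7*, a component of the membrane attack complex, and *Cd55*, which protects cells from complement, were higher in gp38+CD26+, at 2414 ± 1576 against 233 ± 165 CPM and 433 ± 102 against 76.5 ± 23.3 CPM. *C3*, the central component of the cascade, and *C1s1*, a protease that starts it, were higher in gp38+CD26-, with *C3* at 1257 ± 461 against 2630.4 ± 668 CPM (log2 fold change -1.07 ± 0.25). By edgeR 8 of the 13 tested genes were not called and 38.5% were called, against 14.04% of all tested genes. The calls of *C3* and *C1s1* were lost with S124, and those of *Cd55* and *C1s1* in a fit with the other nonepithelial populations.

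Mural genes were the list with the most negative median, -3.59. *Rgs5*, a regulator of G protein signalling that marks pericytes, was at 2.79, 2.48, 19.6, 18.3 and 2.87 CPM in gp38+CD26+ and at 644 to 2227 CPM with a median of 1389 in gp38+CD26- (log2 fold change -7.24 ± 0.76, adjusted p = 3.9e-05). *Kcnj8*, a potassium channel of pericytes, was at 15.7 ± 12.3 against 186.8 ± 36.4 CPM and *Acta2*, smooth muscle actin, at 12.8 ± 13.7 against 160.96 ± 81.2 CPM (log2 fold changes -3.57 ± 0.53 and -3.65 ± 0.69). *Rgs5* was at 10211 CPM in mural and 231 CPM in medullary single cells, and *Acta2* at 5325 and 141 CPM. *Cspg4* and *Rgs4* of the same list, at 2.7 ± 2.66 against 12.2 ± 8.12 CPM and 19 ± 9.17 against 22.3 ± 9.72 CPM, were not called (adjusted p = 0.0851 and 0.831). No mural gene was on the gp38+CD26+ side at an unadjusted p under 0.05, by DESeq2 or by limma-voom.

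Transcription factors of mesenchymal identity were called in both directions, with 13 of 45 tested higher in gp38+CD26+, 7 higher in gp38+CD26- and 25 not called. This is 44.4% called, against 14.04% of all tested genes. On the gp38+CD26+ side *Osr1* was at 165, 377, 469.9, 373 and 425 CPM against 9.24 to 41 CPM with a median of 21.5 (log2 fold change 4.04 ± 0.37, adjusted p = 1.43e-05). *Ebf2* was at 325 ± 79.1 against 65 ± 23.8 CPM and *Creb5* at 54.9 ± 11.6 against 4.59 ± 3.12 CPM (log2 fold changes 2.32 ± 0.25 and 3.59 ± 0.69). The Hox genes *Hoxa5*, *Hoxc4* and *Hoxc5*, which give cells their position along the body axis, were higher there too, and *Hoxc5* was at 40.5, 26, 31.6, 19.1 and 37.7 CPM with counts in 1 of the 6 gp38+CD26- libraries. On the gp38+CD26- side *Meox1* was at 46.6 ± 43.2 against 451 ± 54.8 CPM and *Nr2f2* at 35.7 ± 14.1 against 145 ± 11.4 CPM (log2 fold changes -3.27 ± 0.52 and -2.02 ± 0.25). *Sox9* was at 12.6 ± 2.08 against 70 ± 25 CPM and *Foxs1* at 4.02 ± 3.21 against 45.5 ± 6.06 CPM (log2 fold changes -2.48 ± 0.28 and -3.50 ± 0.72). *Tbx2*, *Heyl* and *Meox2* were the other 3 called there. Of the 13 higher in gp38+CD26+, 6 had their highest single-cell level in mesothelial cells (*Osr1*, *Wt1*, *Klf4* and the Hox genes named), 5 in capsular cells, 1 in mural and 1 in endothelial cells. Of the 7 higher in gp38+CD26-, 4 were highest in mural cells, 2 in endothelial cells and 1 (*Sox9*) in medullary cells. *Nr2f2* and *Foxs1* were highest in mural cells (855 and 293 CPM, against 252 and 149.9 in medullary cells), whereas *Sox9* was at 1.03 and 21.8 CPM. The calls of *Sox9*, *Creb5*, *Hoxa5* and *Wt1* were lost in a fit together with the other nonepithelial populations. Those of *Hoxa5*, *Tbx2* and *Meox2* were lost without any 1 of 7, of 5 and of 3 of the 11 libraries (adjusted p up to 0.0918, 0.061 and 0.0558).

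No cell cycle gene passed the test: none of 20 tested was called by edgeR, DESeq2 or limma-voom, where edgeR called 14.04% of all tested genes. Of the 20, 1 reached an unadjusted p under 0.05 in edgeR, and their median log2 fold change was 0.34. Of 22 immediate early and heat shock genes, edgeR called 2 (9.09%, against 14.04% of all tested genes), *Hspa1a* and its near-identical copy *Hspa1b*, both higher in gp38+CD26-. DESeq2 called 2 in each direction and limma-voom 2 higher in gp38+CD26-, beside their calls over all genes given above. *Hspa1a* was at 17.2, 59.5, 39.6, 51.9 and 90.2 CPM against 74.5 to 681 CPM with a median of 642, with overlap, and 1 gp38+CD26- library stood far below the other 5. Of 10 genes that fibroblasts share, 4 were higher in gp38+CD26+ (*Col1a1*, *Col1a2*, *Col3a1* and *Fbln1*), 3 in gp38+CD26- (*Pdgfra*, *Pdgfrb* and *Thy1*) and 3 not called (70% called, against 14.04% of all tested genes). In a fit with the other nonepithelial populations all of these calls were lost, and with S124 all but that of *Pdgfrb*. The calls of *Fbln1* and *Thy1* were lost without any 1 of 8 and of 9 of the 11 libraries (adjusted p up to 0.0818 and 0.10004). The summed level of the 10 was 66250.0 to 76802 against 39259 to 48828 CPM.

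**Figure D3:**
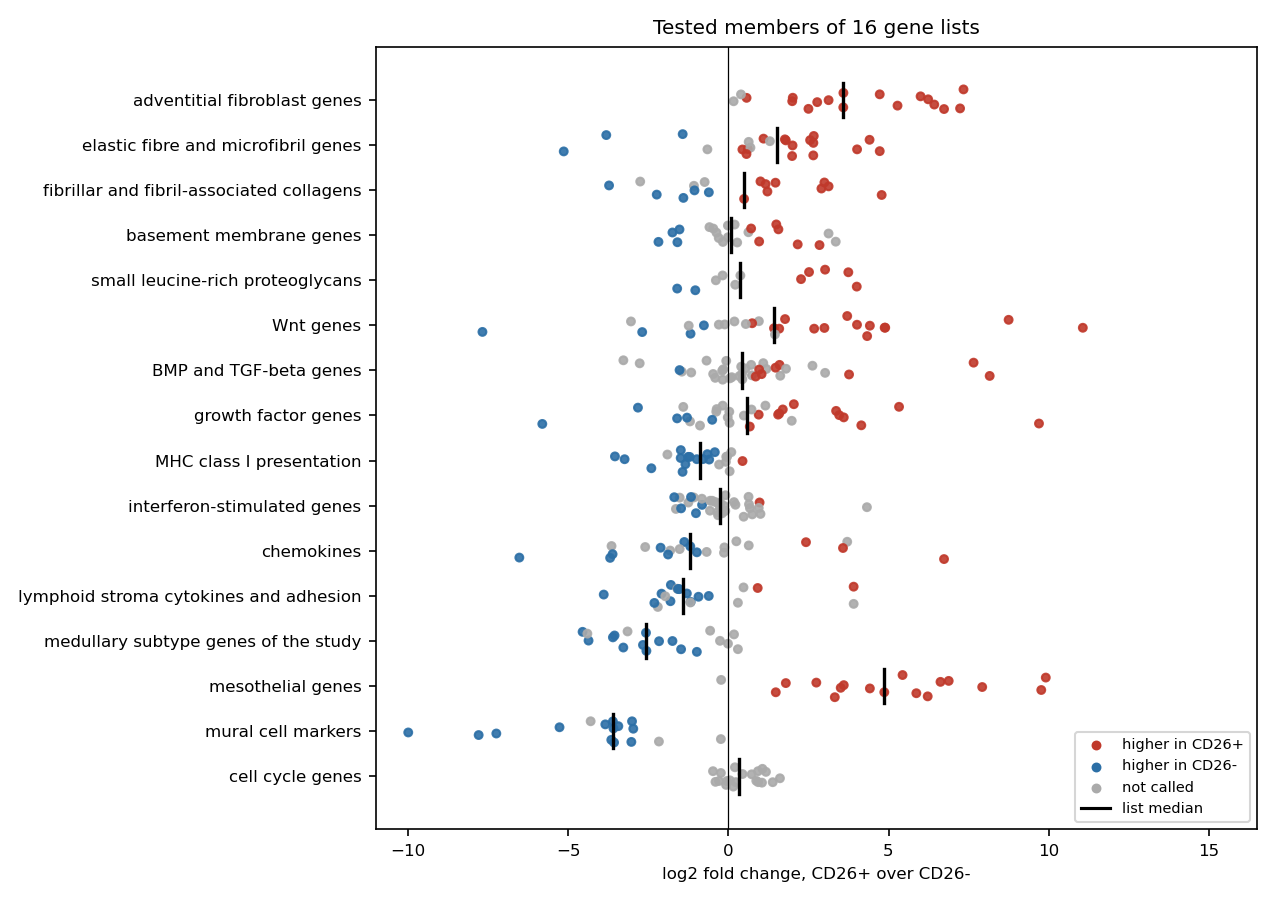
Log2 fold change of gp38+CD26+ over gp38+CD26- (x axis) of each tested member of 16 gene lists (y axis), with members called higher in gp38+CD26+ in red, higher in gp38+CD26- in blue and not called in grey, and the median of each list as a black bar. Medians ran from -3.59 for the mural markers to 4.87 for the mesothelial genes, and the class I, chemokine and lymphoid lists had medians below 0.

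The single-cell libraries of the same age gave a separate readout of where the called genes are used. The 2 libraries held 2565 and 3268 cells with 28583048 and 39030879 UMIs (unique molecular identifiers, which count transcripts), shared 3 cell barcodes, and were divided by the subtype labels that the authors deposited. The UMIs were summed into a capsular pool (695 and 1207 cells), a medullary pool (633 and 762), a mesothelial pool (32 and 157), a mural pool (744 and 663) and an endothelial pool (425 and 443). Of 889 genes called higher in gp38+CD26+ with a value, 727 (81.8%, 95% exact binomial interval 79.1 to 84.3) had a higher level in capsular than in medullary cells in both libraries. Of 851 genes called higher in gp38+CD26-, 23 (2.70%, 1.72 to 4.03) did so, and of all 11791 tested genes 2929 (24.8%). The pools do not stand for the gates: the study found CapFb1 cells, which the capsular pool holds, in the gp38+CD26- gate too. With CapFb1a, CapFb1b and CapFb1c left out of the capsular pool, the 3 shares were 82.1%, 1.76% and 24.3%. Genes are not independent of each other and the labels were made from these cells, so the intervals describe counting error only and no test was made.

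When the 5 pools were set side by side, which was done after values had been seen, 56.8% of the genes higher in gp38+CD26+ and 57.6% of those higher in gp38+CD26- were highest outside the capsular and medullary pools, against 72.9% of all tested genes. Of the 889 genes higher in gp38+CD26+, 365 were highest in capsular cells (41.1%, against 10.7% of all tested genes), 327 in mesothelial cells (36.8%, against 20.04%) and 19 in medullary cells. Mural and endothelial cells held the highest level of 85 and 93 of them (9.56% and 10.46%, against 30.03% and 22.8%). Of the 851 genes higher in gp38+CD26-, 346 were highest in medullary cells (40.7%, against 16.48% of all tested genes), 239 in mural cells (28.1%, against 30.03%), 196 in endothelial cells (23.03%, against 22.8%), 55 in mesothelial cells and 15 in capsular cells. The bulk difference of *Pi16* was met by 2587 CPM in capsular and 37.4 CPM in medullary cells, that of *Serpine2* by 649 and 4035 CPM, and that of *Enpp2* by 449 and 2307 CPM. For *Ltbp1* the pools were at 95.3 and 472 CPM and for *Vcam1* at 83.5 and 279 CPM.

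**Figure D4:**
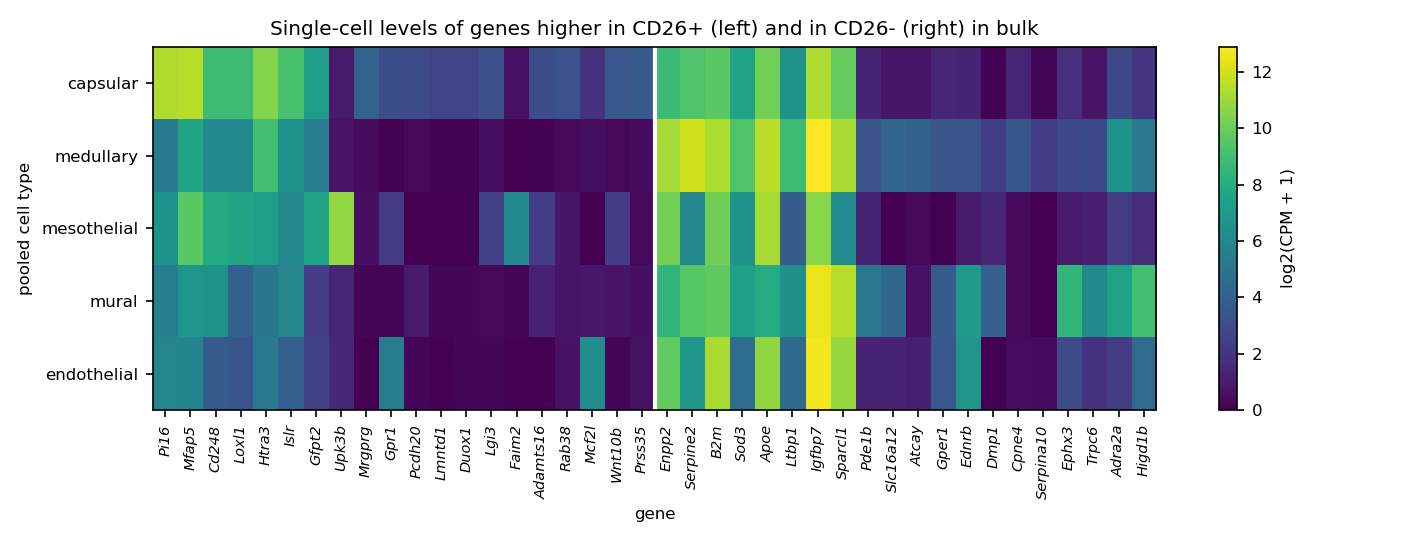
Level in 5 pools of 4-week single cells (y axis) as log2(CPM + 1), the mean of 2 libraries, for the 40 genes of highest level or largest fold change (x axis), with genes higher in gp38+CD26+ in bulk left of the white line and genes higher in gp38+CD26- right of it. *Pi16*, *Mfap5* and *Htra3* are brightest in the capsular row and *Upk3b* in the mesothelial row, and *Serpine2* and *Enpp2* are brightest in the medullary row.

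The difference between the gates was then compared with that at birth, where 12 libraries of the same gates (6 and 6) were available at P0 and carried the same genotype. At P0 alone, 401 of 11967 tested genes (3.35%) were called. The interaction of age and population was called in 702 of 14066 genes (4.99%). The balance at 4 weeks lay further toward gp38+CD26+ than at P0 in 251 (1.78%) and further toward gp38+CD26- in 451 (3.21%). These counts follow the sign of the interaction and not the size of the difference. Of the 897 genes higher in gp38+CD26+ at 4 weeks, the interaction placed 170 further toward gp38+CD26+ at 4 weeks and 2 further toward gp38+CD26-. Of 787 also tested at P0, 117 (14.9%) were called in the same and 5 in the opposite direction. Of the 870 genes higher in gp38+CD26-, 869 entered the interaction, which placed 248 further toward gp38+CD26- at 4 weeks. Of 790 of them tested at P0, 14.3% were called in the same and 12 genes in the opposite direction. The genes were chosen at 4 weeks, so these counts lean toward a larger difference at that age.

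**Figure D5:**
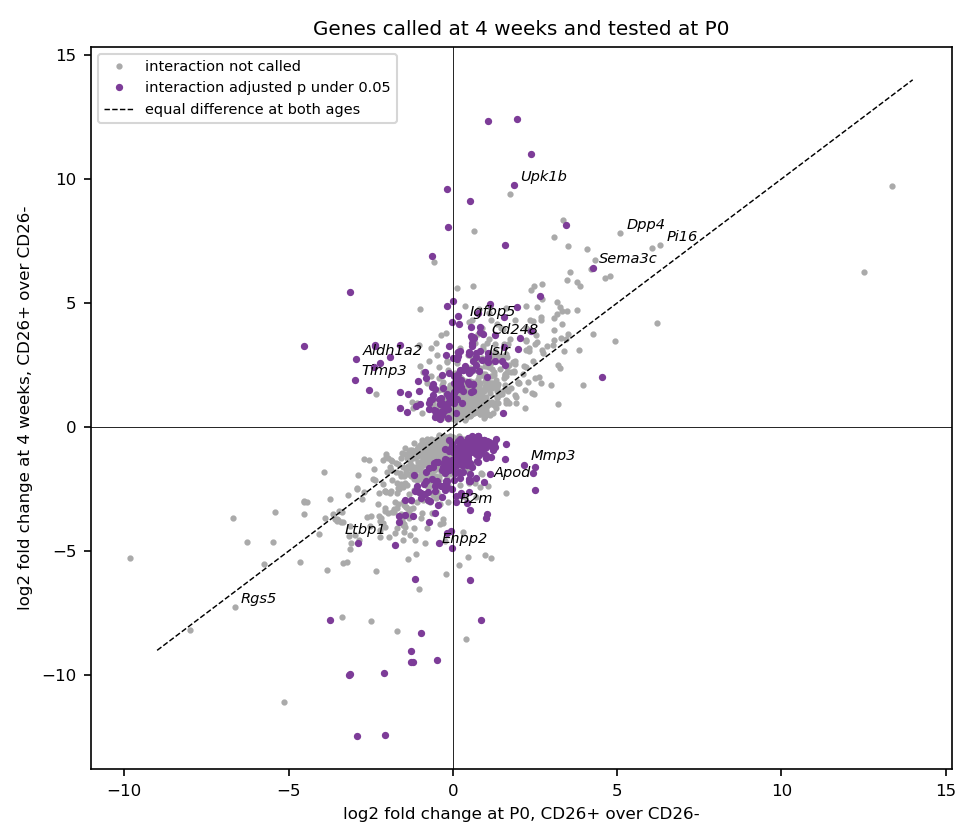
Log2 fold change of gp38+CD26+ over gp38+CD26- at 4 weeks (y axis) against that at P0 (x axis) for the genes called at 4 weeks and tested at P0, with genes called for the interaction of age and population in purple. The dashed line marks an equal difference at both ages, and the labelled genes were chosen after their values were seen. *Pi16* and *Rgs5* lie near it, *Cd248*, *Igfbp5* and *B2m* lie near 0 at P0, and *Timp3* and *Aldh1a2* lie on opposite sides of 0 at the 2 ages.

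*Pi16*, *Gfpt2*, *Htra3* and *Rgs5* differed in the same direction at birth: their log2 fold changes at P0 were 6.32, 2.43, 2.14 and -6.63, and their interactions were not called (adjusted p = 0.765, 0.802, 1 and 0.85). *Cd248* was at 1024 ± 369 against 650.4 ± 116 CPM at P0 in gp38+CD26+ against gp38+CD26- and *Islr* had a log2 fold change of 0.70 there, against 3.59 and 2.98 at 4 weeks (interaction adjusted p = 8.53e-06 and 1.8e-06). *Fn1* and *Eln*, the matrix proteins fibronectin and elastin, had log2 fold changes of 0.00 and -0.82 at P0 and of 2.77 and 1.99 at 4 weeks (adjusted p = 8.9e-05 and 3.51e-05). *Igfbp5* went from 0.19 to 4.15 and *Osr1* from 0.56 to 4.04 on the same scale. On the gp38+CD26- side the class I light chain *B2m* had a log2 fold change of -0.16 at P0 (adjusted p = 0.748) and of -2.40 at 4 weeks (interaction adjusted p = 1.8e-06). *H2-K1* and *H2-D1* were not called for the interaction (adjusted p = 0.468 and 0.958). *Enpp2* went from -0.73 to -3.84, *Ptn*, the growth factor pleiotrophin, from 0.09 to -2.79 and *Vcam1* from -0.51 to -2.31 (interaction adjusted p = 5.31e-06, 1.63e-05 and 0.00116). *Il34* had a log2 fold change of -2.43 at P0, and its interaction was not called (interaction adjusted p = 0.694).

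Of the genes called at 4 weeks, 5 of those higher in gp38+CD26+ and 12 of those higher in gp38+CD26- were called in the opposite direction at P0, *Timp3*, *Aldh1a2* and *Apod* among them. *Timp3* was at 279 ± 99.5 against 2198 ± 810.1 CPM at P0 and at 899 ± 109 against 238 ± 23.3 CPM at 4 weeks, so that its log2 fold change went from -2.98 to 1.92 (interaction adjusted p = 1.93e-08). *Aldh1a2* was at 5.16 ± 4.65 against 40 ± 13.504 CPM at P0 and at 50.7 ± 27.8 against 7.55 ± 5.12 CPM at 4 weeks, with log2 fold changes of -2.94 (adjusted p = 0.0487) and 2.75. *Apod* went the other way, from 0.94 at P0 to -2.19 at 4 weeks, and *Mmp3*, stromelysin, which was not called at P0 (adjusted p = 0.158), from 2.17 to -1.51 (interaction adjusted p = 0.000138 for *Apod* and 0.0118 for *Mmp3*). *Dpt* and *Ly6a*, which were not called at 4 weeks, were higher in gp38+CD26+ at P0, with log2 fold changes of 2.81 and 4.49, and both were called for the interaction (adjusted p = 0.00111 and 6.29e-07).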

How the data were processed

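The data were bulk RNA-seq libraries of sorted thymic stroma, of which the 11 of wild-type gp38+CD26+ and gp38+CD26- cells at 4 weeks were compared, 12 of the same gates at P0 were used for the comparison of ages, and 2 single-cell libraries of 4 weeks for levels by subtype. The authors deposited whole read counts per Ensembl gene for the bulk libraries and UMI counts per gene and cell, with subtype labels, for the single cells. The submitters' notes name STAR 2.5.3a, HTSeq, Cell Ranger 3.1.0, mm10 and GRCh38 without saying which served which files, and whether strand was used in counting is not given in the sources used here, so overlapping and near-identical genes are uncertain. Entries that name no gene (7.81 to 9.97% of the counts of the 11 libraries, 9.36 to 16.6% at P0 and 29.4% in S124) were left out. A symbol was found for 37607 of 39179 gene IDs.

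Groups came from the titles. S124 was left out by the rule that defines the comparison: it held 25702 gene counts, 4343 detected genes and 1 count of *Dpp4*, and its Spearman correlation was 0.452 to 0.462 with the other gp38+CD26+ libraries and 0.454 to 0.474 with the gp38+CD26- libraries. The meaning of the prefixes TXCK and DFCK is not stated. Genes were filtered with filterByExpr, scaled by TMM and tested with edgeR 4.0.16 (quasi-likelihood, 2 groups) in R 4.3.3, and p-values were adjusted over all 12587 tested genes by Benjamini and Hochberg. The SE is the absolute log2 fold change divided by the square root of F. The interaction was tested in the same way over 4 groups. DESeq2 1.42.0 and limma 3.58.1 (voom) were run as alternatives, with other scalings, filters, covariates and library sets. With a group at 0, the fold is a bound against 3 counts over the group. Per the study's methods, the authors kept cells called singlets by DoubletFinder, and no doublet caller was run here. UMIs were summed by the authors' labels (CapFb, MedFb, Mes, Pc with VSM, and En) in Python 3.11.15 with pandas 2.3.3, and figures were drawn with matplotlib 3.10.9. Intervals cover counting error only.

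The members and the 30 gene lists were chosen with earlier results of these data known. The named genes were the sort genes, the 12 genes per direction of largest absolute log2 fold change (at least 10 CPM in the higher group, called, no overlap), the 8 per direction of highest mean CPM (called, absolute log2 fold change over 2), and up to 4 called members per list and direction by smallest p with list members that are defining or not called. Further list members named for their role, the comparison of 5 single-cell pools, the promoter motifs, the lists searched for them, the promoters shown and the genes drawn or labelled in plots were chosen after their values were seen. Results for some genes that the rule would name are not reported here. Tested on simulated data for this comparison (12587 genes, 200 changed), the fit called 5 of 57 genes changed 1.5-fold, 5 of 49 changed 2-fold, 27 of 41 changed 4-fold and 36 of 53 changed 8-fold, and 0 unchanged genes.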

Additional observations from a re-analysis of the deposited data

Results flagged for a closer look

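In 47 of 452 groups of 5 or 6 libraries checked, over the named genes and the summed markers, 1 library lay so far from the others of its population that Dixon's test set it apart. For normally distributed values chance does so in about 1 group in 20. Here a group with counts in only 1 library was always set apart and a group without counts never. The 47 are thus no measure of an excess over chance. Among the gp38+CD26- libraries the single high value, in CPM, was *Pde1b* 77.9, *Mfap5* 459.6, *Gfpt2* 666, *Igfbp7* 4003, *Clec3b* 113.3, *Msln* 2.5, *Iigp1* 702, *Ccl19* 364, *Fst* 30.9, *Sfrp2* 73.6, *Dhrs3* 502, *Hoxc5* 1.71, *Kdr* 0.36, *Cldn3* 2.86, *Krt14* 4.76 and *Csf1r* 0.921. A single low value of gp38+CD26- was *Hspa1a* 74.5 and *Hspa1b* 4.65 CPM. Among the gp38+CD26+ libraries the single high value, in CPM, was *Adra2a* 0.146, *Higd1b* 0.293, *Sparcl1* 652, *Des* 78.8, *Col4a2* 350.2, *Ltbp2* 8.36, *Tnfrsf11b* 259.6, *Angpt2* 2.41, *Plvap* 44.1 and *Hspa1b* 6.42. A single low value of gp38+CD26+ was *Ogn* 799.9 and *Vcam1* 31.4 CPM. Among the genes named for their role, the single high value of gp38+CD26- was *Ccl21a* 111, *Fgf18* 0.809, *Igf1* 980.2, *Vegfd* 10.3, *Wnt2b* 2.88, *Wnt5a* 40.6 and *Wt1* 34.6 and the single low value *Cxcl12* 187.1 and *Ly6a* 194 CPM. The single high value of gp38+CD26+ was *Axin2* 34.6, *Ccl21a* 11.7, *Col6a1* 4182, *Cxcl13* 142, *Cxcl14* 151.3, *Eln* 1377 and *Fgf18* 12.7 and the single low value *Wnt5b* 4.04 CPM. 

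For 70 of the 219 named genes with a value, the difference between gp38+CD26+ and gp38+CD26- was not the same at P0 and at 4 weeks. This was by the interaction term of edgeR, at an adjusted p under 0.05, which 702 of 14066 genes (4.99%) passed. Most named genes were picked by their difference at 4 weeks, so their share is raised by that choice. The values that follow are the log2 fold change of gp38+CD26+ over gp38+CD26- at 4 weeks minus that at P0. It was above 0, with the balance at 4 weeks further toward gp38+CD26+, for *Cd248* 2.92, *Islr* 2.27, *Sema3c* 2.15, *Fbn1* 0.93, *Igfbp6* 1.53, *Upk1b* 7.87, *Msln* 8.27, *Col14a1* 1.14, *Nid1* 1.65, *Fbln2* 1.16, *Omd* 1.46, *Aspn* 1.79, *Timp3* 4.88, *Tapbp* 0.90, *Fstl1* 0.83, *Bmp7* 4.69, *Igfbp5* 3.95, *Igfbp3* 2.07, *Aldh1a3* 4.31, *Aldh1a2* 5.69, *Osr1* 3.47, *Ebf2* 1.82, *Hoxc5* 9.46, *Anxa3* 2.60, *Creb5* 2.98, *Eln* 2.79, *Fn1* 2.76, *Lox* 1.36 and *Timp2* 1.37. It was below 0, with the balance at 4 weeks further toward gp38+CD26-, for *Pdpn* -0.77, *Higd1b* -4.10, *Enpp2* -3.12, *Serpine2* -2.14, *B2m* -2.26, *Sod3* -1.50, *Apoe* -3.88, *Ltbp1* -2.18, *Igfbp7* -2.51, *Sparcl1* -2.71, *Bgn* -1.30, *Ptn* -2.90, *Cpxm1* -1.67, *Tmem176a* -1.53, *Col6a3* -0.97, *Col6a6* -2.05, *Mmp3* -3.69, *Iigp1* -1.37, *Xaf1* -1.22, *Ccl11* -1.53, *Vcam1* -1.82, *Il1r1* -1.59, *Id3* -1.96, *Apod* -3.16, *Ndufa4l2* -2.40, *Ctsl* -1.18, *Cxcl13* -5.33, *Dcn* -0.61, *Dpt* -2.43, *Ly6a* -4.34 and *Tnfsf13b* -2.91. For the remaining 10 genes at least 1 of the 4 groups held no count, so that the fitted value depends on the prior count and is no bound: *Mrgprg* 18.76, *Pcdh20* 10.43, *Lmntd1* 11.25, *Faim2* 13.48, *Prss35* 8.62, *Pde1b* -9.54, *Slc16a12* -10.37, *Dmp1* -11.64, *Kdr* 15.11 and *Mbp* 16.90.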

How the results depend on the processing

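The counts of 897 genes higher in gp38+CD26+ and 870 higher in gp38+CD26- stayed within 1.5 times of these values with other scaling factors (850 to 944), other filters on low counts (787 to 914), DESeq2 (1207 and 1138), limma-voom (1063 and 1147), the title prefix as a term (905 and 894), the TXCK libraries alone (652 and 614) and a replicate block (671 and 612, of which 637 and 573 were among the main calls). They moved further with S124 included (475 higher in gp38+CD26+), in the DFCK libraries alone (235 and 208, with 2 against 3 libraries), with all nonepithelial populations in the fit (467 higher in gp38+CD26+) and when a log2 fold change over 1 was tested (325 and 284, a stricter question by construction). For the other 3 the cause was not tested. Leaving out each of the 11 libraries in turn gave 769 to 961 genes higher in gp38+CD26+ and 699 to 963 higher in gp38+CD26-. The 702 genes called for the interaction with age became 463 with S124, 666 with DESeq2 size factors, 713 with the title prefix as a term, 715 with another filter, 924 in limma-voom and 548 to 690 when libraries were left out. The share of genes higher in gp38+CD26+ with the higher level in capsular cells, 81.8%, was 87.8% and 85.04% in the single-cell libraries taken alone and 85.9% with the mesothelium added, while that of all tested genes went from 24.8% to 31.9%, 32.1% and 25.9%. With S124 the log2 fold change of *Ctsl* turned from -0.80 to 0.092 (adjusted p = 0.955). Among genes that were not called, S124 turned those of *Ccl21a* to 2.65, *Dcn* to -0.036, *Il7* to 0.321 and *Ly6a* to -0.0028. That of *Oaf*, -0.011, became 0.00552 with DESeq2 size factors, 0.00551 in DESeq2, 0.0020 without a filter, 0.025 with the title prefix as a term, 0.0896 within TXCK and -0.104 to 0.0446 when libraries were left out. That of *Irf7*, 0.18, became -0.565 within DFCK and -0.023 to 0.384 when libraries were left out. The block paired libraries whose title numbers lie 36 apart, which no label explains. Each gp38+CD26+ library used correlated best with its own number, with correlations of their deviations of 0.032 to 0.079. This hints at a pairing, but whether such libraries came from the same mice was not tested. The main fit has no term for it, and the block lowered the calls to the 671 and 612 given above. Over the named genes and their alternatives, 4779 of 5223 values kept direction and side of the threshold, 399 lost the call, 28 gained it and 17 changed sign. Genes were filtered anew in each fit, the one with S124 included, so a gene that did not pass that filter has no value in that fit. The call was lost for 32 of these genes with S124, 52 with all nonepithelial populations, 61 against a log2 fold change of 1, 88 within DFCK, 30 within TXCK, 11 with the replicate block (*Ackr4*, *Epyc*, *Fgf9*, *Heyl*, *Pdgfra*, *Ror2*, *Tapbp*, *Thy1*, *Wif1*, *Wnt1* and *Wnt5b*) and 10 in limma-voom. Calls lost when 1 library was left out were those of *Bst2*, *Col4a2*, *Cxcl14*, *Fbln1*, *Hoxa5*, *Krt14*, *Meox2*, *Mmp14*, *Mmp3*, *Pdgfra*, *Tapbp*, *Tbx2*, *Thy1*, *Vegfd*, *Wnt2b*, *Wnt5b* and *Wt1*, given above, and of *Epyc* (without gp38+CD26- 2, adjusted p = 0.0508). Recovery of simulated 2-fold changes was low, so a gene that was not called may still differ.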
